A study of Homo sapiens with 16 samples.

Results

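CAL62 cells treated with U0126 were compared directly with CAL62 cells treated with DEL-22379, both at 10 µM for 24 h. The members are the 4 CAL62 libraries of these drugs, 2 per drug, identified by their labels among the 16 libraries of the series. No vehicle library enters the contrast. The members and the gene lists used below were chosen with earlier results of these data known. Stranded RNA-seq was run on 2 cell lines from anaplastic thyroid carcinoma, the RAS-mutant CAL62 and the BRAF-mutant 8505c. Each line was grown in medium with 10% FBS and received vehicle (DMSO), U0126 at 10 µM, or DEL-22379 at 1 or 10 µM, in 2 biological replicates per group. The sample labels write these doses as mM and the paper as µM, and the paper's unit is used here. CAL62 is a single established line, so its 2 replicates are cultures of the same cells. The p-values rest on a spread between replicate cultures that was pooled over the 16 libraries of both lines.

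Both drugs were aimed at the ERK branch of MAP kinase signaling. In it RAS activates RAF, RAF activates the kinase MEK and MEK phosphorylates ERK. U0126 inhibits MEK and so lowers ERK phosphorylation, whereas DEL-22379 was made to block the dimerization of ERK without blocking its phosphorylation. The paper reports that, under brief growth factor stimulation, DEL-22379 blocked neither in RAS-mutant cells, the kind compared here. In BRAF-mutant cells it impaired dimerization together with the phosphorylation of MEK and ERK. At the dose and time used here, the paper found reduced viability with DEL-22379 in RAS-mutant cells only. A block of ERK dimers in the cells compared here can thus not be assumed. Active ERK induces immediate-early transcription factors, drives entry into the cell cycle, and induces its own inhibitors, the dual-specificity phosphatases and the Sprouty proteins.

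The deposited values are normalized counts, reads per gene divided by a size factor of the library. The 4 libraries held 31392265 to 35000943 normalized counts, from 26395936 to 36739600 recovered reads. The test took the 19127 of 60715 genes that reached 10 normalized counts in 2 or more of the 16 libraries. Differences are log2 values of U0126 minus DEL-22379, on the log2(normalized count + 1) scale with their SE, so that a positive value means higher with U0126. They come from limma with the replicate number as a block, with Benjamini-Hochberg adjusted p over all genes. A gene was called at an adjusted p under 0.01 and a difference beyond 1.5 in either direction, and members of gene lists were counted at an adjusted p under 0.05. In bulk RNA a lower value can come from fewer cells of a kind or from less RNA per cell, and these cannot be told apart.

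The cells carried part of the thyroid label. PAX8, a transcription factor of thyroid follicular cells, was at 11419 and 12449 normalized counts with DEL-22379 and at 9583 and 10144 with U0126, while NKX2-1, TSHR and DIO1 were at 0 in all 4 libraries. Of the leukocyte markers, CD3E and MS4A1 were at 0 in these libraries and PTPRC reached 3.57 at most, while CD4, ITGAM and CD14 were called lower with U0126 at low counts, CD14 not without DEL-22379 replicate 1 or U0126 replicate 2. The summed level of the 5 leukocyte markers tested, of 12 in the list, was 250 and 533 with DEL-22379 against 138 and 186 with U0126. Most of the U0126 sums was CD8A, which went the other way without passing the test. CD8A was at 51.05 and 59.85 with DEL-22379 and at 110 and 134 with U0126. The 4 endothelial markers tested, of 8 in the list, summed to 575 to 727 in all 4 libraries, most of it EGFL7, at 483 to 719. Of the 4 endothelial markers tested, PECAM1 (12.8 and 59.9 against 0.910 and 0) and KDR (42.1 and 32.0 against 5.44 and 8.04) were called lower with U0126 and 0 higher, and the call of KDR was lost in every fit without 1 of the 4 libraries. The 9 fibroblast markers tested summed to 3728 and 1982 with DEL-22379 and to 65849 and 41062 with U0126. Nearly all of that sum was COL1A1 and COL1A2. Of 9 fibroblast markers tested, 4 were higher with U0126 and 0 lower, the collagens and, at low counts, LUM (0 in both DEL-22379 libraries against 43.5 and 15.2) and THY1 (0 and 1.03 against 17.2 and 25.9). POSTN was at 0, and DCN, FAP and COL3A1 were at 5.16 or less. The part of these marker levels in the results on cytokines and matrix genes was not tested.

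The RNA of CAL62 cells differed widely between the drugs. In all, 2539 genes were called, 1388 higher with U0126 (7.26% of genes tested) and 1151 lower (6.02%). All 2539 had the same sign in both replicate pairs, which their selection from these same pairs makes likely. The groups overlapped in 6 called genes, and they did not overlap in 69.8% of all genes tested. At an adjusted p under 0.05, 25.1% of genes tested were higher and 26.7% lower, so that the counts of list members given here have to be read against those shares. The median difference over all genes was 0.00. Leaving out each of the 4 libraries in turn gave 1798 to 2487 calls, and 695 of the higher and 592 of the lower genes were called in all 4 of these fits. The plot of difference against level shows both directions at every level of expression.

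**Figure D1:**
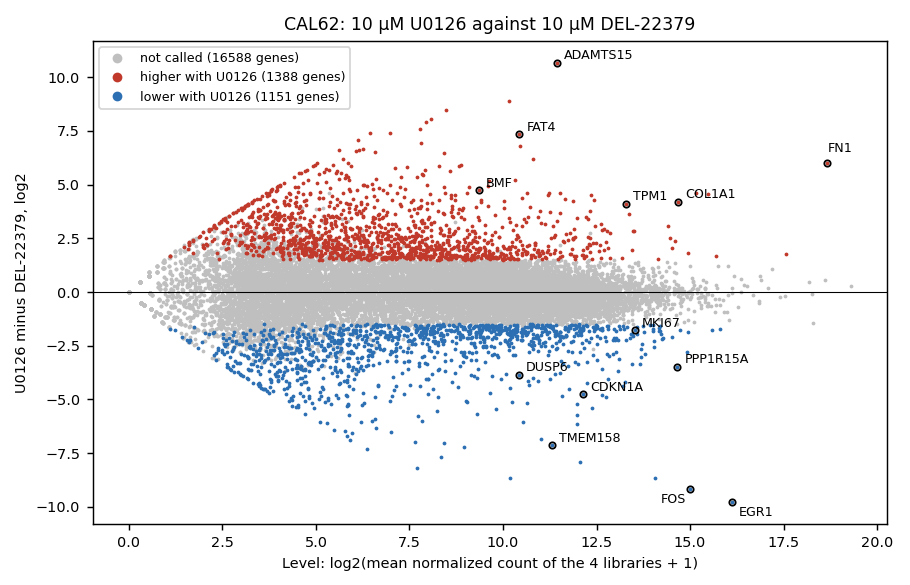
Each point is a gene tested, with log2 of its mean normalized count over the 4 libraries plus 1 on the x axis and the log2 difference, U0126 minus DEL-22379, on the y axis. Red and blue points are the 1388 and 1151 called genes. FN1 stands at 6.02 among the most abundant RNAs, and EGR1 and FOS stand at -9.75 and -9.16.

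The vehicle libraries, which have no part in the test, give a scale for the levels. Among the genes called higher with U0126, the mean of the 2 DMSO libraries lay between the means of the drugs in 1229 genes (88.5%). It lay below both in 78 and above both in 81. Among the genes called lower, it lay between them in 728 genes (63.2%), below both in 252 and above both in 171. Over all genes tested it lay between the drugs in 43.8%. For most called genes the vehicle mean was thus intermediate. Calling genes for a wide gap between the drugs makes a vehicle mean inside that gap likely, so these shares partly follow from the selection. A mean counted as between even where it was close to that of 1 drug. For the gene PPP1R15A the means were 4252 with DMSO, 4224 with U0126 and 47585 with DEL-22379. Whether each drug differed from vehicle was not tested.

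The lower side of the contrast was led by immediate-early genes, which encode transcription factors that growth factor signals switch on within minutes. Of the 21 tested, 18 were lower and 0 higher, 15 of them called, with a median difference of -2.79. EGR1 (chr5:138465490-138469315), a zinc finger factor, was at 69316 and 214018 normalized counts with DEL-22379 and at 67.0 and 293 with U0126. FOS (chr14:75278774-75282230), a partner of JUN in the AP-1 factor, was at 25799 and 104625 with DEL-22379 and at 48.0 and 167 with U0126. In both genes the lowest DEL-22379 library was over every U0126 library, and replicate 2 was the higher in each group. DMSO libraries held 3328 and 4108 counts of EGR1 and 454 and 799 of FOS, below every DEL-22379 library and above every U0126 library. The differences were -9.75 ± 0.44 for EGR1 (adjusted p = 7.05e-07) and -9.16 ± 0.35 for FOS (adjusted p = 2.75e-08).

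The DMSO mean lay between the drugs in 14 of the 21 genes and below both in the other 7. NR4A1, an orphan nuclear receptor, was at 4897 and 11019 with DEL-22379 and 92.4 and 119 with U0126 (-6.12 ± 0.31, adjusted p = 7.75e-08). EGR3 was at 422 and 865 against 0.910 and 3.57 (-7.68 ± 0.72, adjusted p = 5.44e-06), and ARC, an activity-induced gene of neurons outside this list, at 18044 and 50517 against 20.8 and 259 (-8.65 ± 0.65, adjusted p = 7.44e-06). FOSB, JUNB, KLF4 and IER2 were lower, with differences of -5.39, -3.59, -4.31 and -2.87. JUN itself was at 6634 and 12254 with DEL-22379 and 2140 and 2280 with U0126 (-2.03 ± 0.19, adjusted p = 8.79e-06), with DMSO between them at 4048 and 4069. FOSL2 (0.28 ± 0.25, adjusted p = 0.388) and SRF (-0.48 ± 0.28, adjusted p = 0.179) did not pass the test, and ATF3, at 2020 and 8846 against 1296 and 773, had an adjusted p of 0.0285.

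The start region of EGR1 is shown because this gene had the largest called difference on the lower side. Capitals mark CArG boxes, the sites that serum response factor binds, with 2 matches 105 to 96 and 83 to 74 bases before the RefSeq start. The window is taken from the 250 bases before the start, written 5′ to 3′ on the strand of the gene.
EGR1 (chr5:138465314-138465465, plus strand, GRCh38.p14): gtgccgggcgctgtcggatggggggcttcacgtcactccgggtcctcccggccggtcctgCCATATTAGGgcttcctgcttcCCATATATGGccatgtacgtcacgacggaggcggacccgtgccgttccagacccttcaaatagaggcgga
Such a box, on either strand, was in 2 of the 18 immediate-early promoters available, EGR1 and SRF, and in 1.13% of all 11467 promoters of tested protein-coding genes. The share was 1.97% among genes called higher and 1.31% among genes called lower. These counts used RefSeq windows from 250 bases before to 50 bases after the start. The match is a description of the sequence alone.

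Genes that report ERK output were lower with U0126 almost throughout. Of the 27 members tested, 24 were lower and 0 higher, 18 of them called, with a median of -2.26. DUSP5, a nuclear phosphatase that removes phosphate from ERK, was at 13682 and 11169 normalized counts with DEL-22379 and 600 and 321 with U0126 (-4.81 ± 0.15, adjusted p = 4.27e-09). DUSP6, the cytoplasmic ERK phosphatase, was at 3178 and 1971 against 178 and 169 (-3.85 ± 0.27, adjusted p = 2.18e-06). Both genes were far apart between the drugs and differed in where DMSO lay. DMSO held 1484 and 1354 counts of DUSP5, far under the DEL-22379 libraries, and 2014 and 1863 counts of DUSP6, the former inside the range of the DEL-22379 libraries and the latter just below it.

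Feedback inhibitors and ETS factors followed. SPRY4, which restrains receptor signaling to RAS, was at 3072 and 3164 with DEL-22379 and 96.0 and 75.0 with U0126 (-5.18 ± 0.27, adjusted p = 2.69e-07). ETV4 (-5.11 ± 0.36) and ETV5 (-3.82 ± 0.18), ETS factors of the PEA3 group, were lower. FOSL1, an AP-1 member stabilized by ERK, was at 17770 and 18099 against 880 and 852 (-4.37 ± 0.22). The groups of these 4 genes did not overlap. TMEM158, a gene induced by RAS, had the largest difference of the list, at 6013 and 4002 against 29.9 and 38.4 (-7.14 ± 0.29, adjusted p = 2.48e-08). EPHA2, a receptor for ephrins that is induced by ERK, differed less, at 28904 and 27205 against 5637 and 5975 (-2.27 ± 0.10). SPRED1 did not pass the test, at 1465 and 1639 against 1340 and 1344 (-0.21 ± 0.14, adjusted p = 0.227), and CCND1, at 11266 and 8670 against 8153 and 5808, had a difference of -0.52 ± 0.18 (adjusted p = 0.0269).

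PLAUR, the receptor of urokinase, differed (-3.24) and is shown because its start region holds the AP-1 motif, TGANTCA, which FOS and JUN proteins bind. Capitals mark the match, 186 to 180 bases before the start.
PLAUR (chr19:43670289-43670415, minus strand, GRCh38.p14): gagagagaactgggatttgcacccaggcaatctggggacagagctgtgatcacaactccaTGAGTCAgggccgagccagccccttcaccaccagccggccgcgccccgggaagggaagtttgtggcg
The motif, searched on both strands, was in the promoters of 68 of 685 protein-coding genes called lower (9.93%), in 58 of 811 called higher (7.15%) and in 4.75% of all promoters. In the list of ERK output it was in 4 of 17 promoters, those of EMP1, PLAUR, SPHK1 and SPRED3.

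Growth factors and cytokines were mostly lower with U0126. Of the 8 ligands of EGF receptors tested, 6 were lower and 2 higher. In the fit of the 8 CAL62 libraries alone 3 ligands were lower. HBEGF, the heparin-binding ligand, was at 9335 and 11801 normalized counts with DEL-22379 and at 1179 and 1137 with U0126 (-3.18 ± 0.11, adjusted p = 7.31e-09). AREG was at 463 and 436 against 1.81 and 16.1 (-6.02 ± 0.51, adjusted p = 1.60e-05). The ligand NRG1 took the other direction, at 56.2 and 32.0 against 528 and 295 (3.19 ± 0.30, adjusted p = 9.55e-06). Receptor tyrosine kinases were split, with 9 of 26 higher, 9 lower and a median of 0.00. KIT, the receptor of stem cell factor, was at 7.66 and 3.10 with DEL-22379 and 297 and 383 with U0126 (5.83 ± 0.64, adjusted p = 3.29e-05), and DMSO libraries held 244 and 934. EGFR was higher by 0.70 ± 0.11, at 15399 and 13836 against 23423 and 23885, and EPHA5 by 3.82 ± 0.50, while DDR2 was lower (-2.77 ± 0.30) and FGFR1 (-1.22 ± 0.14).

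Of 19 cytokines and chemokines, 10 were lower and 1 higher, with a median of -1.28. IL11, a cytokine of the interleukin-6 family, was at 4854 and 6838 with DEL-22379 and 131 and 302 with U0126 (-4.85 ± 0.52, adjusted p = 5.00e-05). CXCL8, a neutrophil attractant, was at 1417 and 1046 against 19.9 and 25.9 (-5.68 ± 0.73, adjusted p = 3.42e-04), and CXCL2 was lower (-2.98 ± 0.22). For IL11 and CXCL8 the U0126 libraries lay within the range of the DMSO libraries, which held 80.3 and 608 counts of IL11 and 14.7 and 96.9 of CXCL8. Feedback targets of NF-kB were lower in 13 of 17 cases and higher in 1, with a median of -1.26. NFKB2, which encodes the subunit p52, was at 3516 and 4054 against 936 and 1181 (-1.84 ± 0.11, adjusted p = 1.95e-07), and the adhesion molecule ICAM1 at 9360 and 7580 against 1555 and 1816 (-2.32 ± 0.21, adjusted p = 5.47e-06). BCL3, a nuclear partner of p50, was the member higher with U0126 (2.17 ± 0.34).

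Stress genes were lower with U0126, and in many of them the 2 DEL-22379 libraries lay far apart. Of 28 heat shock proteins and co-chaperones, 18 were lower and 3 higher, with a median of -0.66 and 4 called lower. HSPA6, an HSP70 that is nearly silent in unstressed cells, was at 235 and 1722 normalized counts with DEL-22379, at 0.910 and 8.93 with U0126 and at 4.01 and 10.2 with DMSO (-7.19 ± 0.76, adjusted p = 1.46e-05). DNAJB1, an HSP40, was at 6998 and 20660 against 2070 and 3162 (-2.23 ± 0.23). Replicate 2 of DEL-22379 was over replicate 1 for both, by a factor that exceeded 2 in each. HSPA1A (-1.74 ± 0.21) and HSPA1B (-1.93 ± 0.26), whose near-identical sequences can share reads, were lower, and neither call held in every fit without a library. The chaperone HSPA8 missed the threshold of the calls, at 34723 and 68648 against 27411 and 31220 (-0.74 ± 0.21, adjusted p = 0.0103). CRYAB, a small heat shock protein, was higher by 4.05 ± 0.60 at low counts, 1.28 and 1.03 against 27.2 and 43.8.

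The start region of HSPA6 is shown as it holds the heat shock element GAANNTTCNNGAA, which heat shock factors bind. It lies 74 to 62 bases before the start on the opposite strand, so that the capitals read TTCNNGAANNTTC.
HSPA6 (chr1:161524406-161524538, plus strand, GRCh38.p14): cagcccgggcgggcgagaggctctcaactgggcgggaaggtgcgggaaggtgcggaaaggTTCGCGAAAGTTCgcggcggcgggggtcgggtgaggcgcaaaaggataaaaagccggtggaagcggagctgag
The element was in 6 of 25 promoters of this list and in 0.323% of all promoters. Among promoters of genes called lower it was in 0.292%, near that share.

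In the integrated stress and unfolded protein response, 17 of 30 members were lower and 4 higher, with a median of -0.64. PPP1R15A, the phosphatase subunit GADD34 that reverses eIF2α phosphorylation, was at 37369 and 57802 with DEL-22379 and 3369 and 5079 with U0126 (-3.49 ± 0.11, adjusted p = 4.27e-09), where DMSO held 3711 and 4793. The U0126 and DMSO ranges of PPP1R15A overlapped, and DEL-22379 stood apart. DDIT3, the factor CHOP, was lower (-2.16 ± 0.18), and the factor CEBPB (-3.22 ± 0.20). SLC7A5, a transporter of large neutral amino acids, was higher, at 14762 and 13170 against 51854 and 46319 (1.81 ± 0.12, adjusted p = 5.39e-07). ASNS, a target of ATF4, did not differ by more than its error (-0.02 ± 0.24). The higher members numbered 2 in the fit without the replicate block and 2 without U0126 replicate 2.

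Among 23 p53 targets, 12 were lower and 4 higher, with a median of -0.49. CDKN1A, the CDK inhibitor p21, was at 6087 and 11186 with DEL-22379, 174 and 539 with U0126 and 248 and 731 with DMSO (-4.75 ± 0.20, adjusted p = 1.92e-08). PLK3 was lower (-2.95 ± 0.17) and MDM2, the ubiquitin ligase of p53, (-0.71 ± 0.09), at 2490 and 2321 against 1553 and 1390. PLK2 was higher, at 3498 and 5642 against 48077 and 29715 (3.09 ± 0.23, adjusted p = 2.26e-06). The p53 targets thus lay on both sides, and CDKN1A was the member with the largest distance. The BCL2 family, which sets the threshold of apoptosis, also had members on both sides. BMF, a BH3-only activator of cell death, was at 35.7 and 59.9 with DEL-22379, 1276 and 1246 with U0126 and 9.37 and 13.9 with DMSO (4.74 ± 0.40, adjusted p = 2.55e-06). PMAIP1, the BH3-only protein NOXA, was at 2174 and 3607 against 321 and 499 (-2.80 ± 0.14), and MCL1, an inhibitor of apoptosis, at 18315 and 16520 against 4219 and 4685 (-1.97 ± 0.12, adjusted p = 2.18e-07).

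**Figure D2:**
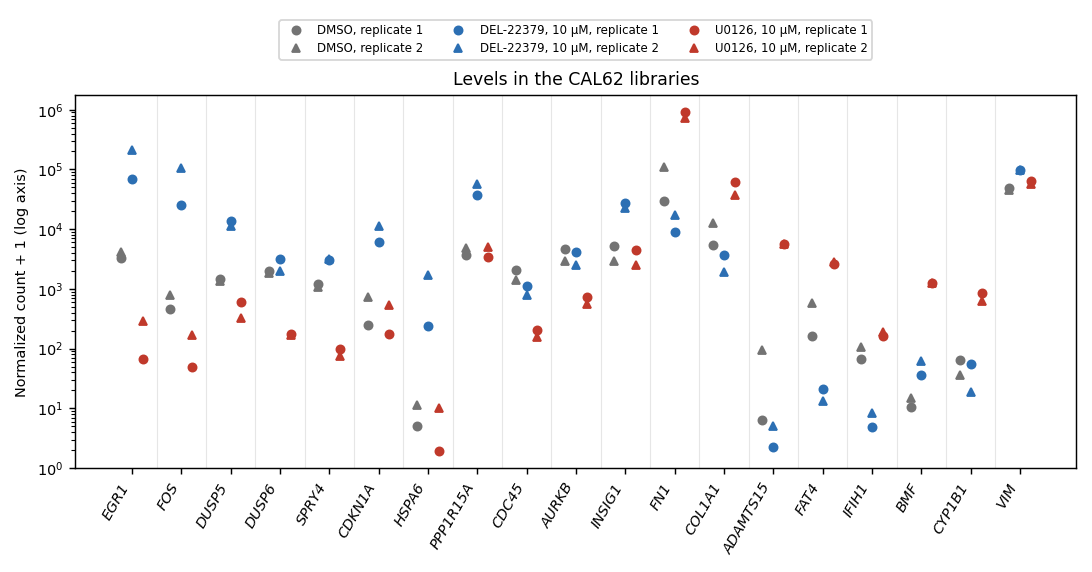
Normalized counts plus 1 on a log axis for selected genes in the CAL62 libraries of DMSO (grey), DEL-22379 (blue) and U0126 (red), with circles for replicate 1 and triangles for replicate 2. EGR1 and FOS were highest with DEL-22379, FN1 and COL1A1 were highest with U0126, and CDC45 and AURKB were lowest with U0126.

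Genes of cell division were lower with U0126 than with DEL-22379, and for nearly all of them the vehicle level was above both drugs. Of 43 DNA replication genes, 40 were lower and 1 was higher, with a median of -1.22. Of 42 mitosis genes, 40 were lower and 1 was higher, with a median of -1.33. Called members numbered 15 and 12 in these lists. The DMSO mean was above both drug means in all 43 replication genes and in 41 of 42 mitosis genes, against 26.4% of all genes tested.

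CDC45, which unwinds DNA with the MCM proteins, was at 1103 and 794 normalized counts with DEL-22379, 205 and 157 with U0126 and 2109 and 1382 with DMSO (-2.38 ± 0.09, adjusted p = 1.14e-08). FEN1, the flap nuclease of lagging strand synthesis, was at 4747 and 3174 against 940 and 797 (-2.16 ± 0.10, adjusted p = 3.57e-08), and CLSPN, the checkpoint adaptor claspin, was lower (-1.96 ± 0.12). RRM2, the ribonucleotide reductase subunit that limits nucleotide supply, was at 12246 and 7464 against 1593 and 1997 (-2.42 ± 0.18). The groups of these genes did not overlap. The exception in direction was MCM6, a subunit of the replicative helicase, at 1039 and 747 against 1285 and 832 (0.23 ± 0.09, adjusted p = 0.0474), with overlapping libraries.

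AURKB, the kinase of the chromosomal passenger complex, was at 4205 and 2522 with DEL-22379 and 739 and 553 with U0126 (-2.35 ± 0.12, adjusted p = 7.41e-08). Its partner INCENP was lower (-1.69 ± 0.09) and CDK1, the kinase that starts mitosis, (-1.74 ± 0.10), at 2019 and 1321 against 535 and 442. MKI67, the proliferation antigen Ki-67, was at 24218 and 12495 against 5941 and 4269, below DMSO at 45686 and 22681 (-1.79 ± 0.14). DMSO libraries thus held the most AURKB, CDK1 and MKI67 in each replicate pair. In homologous recombination and Fanconi repair, 27 of 33 were lower and 3 higher, with a median of -1.34. FANCI was at 5926 and 4638 against 1478 and 1114 (-2.03 ± 0.08, adjusted p = 9.82e-09), FANCA was lower (-2.33 ± 0.11), and BRCA1 (-1.89 ± 0.10).

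Regulators of the G1 phase were lower in 15 of 23 cases and higher in 4. E2F1, a factor that activates replication genes, was at 3540 and 4817 against 509 and 563 (-2.95 ± 0.24), and CCNE2, a cyclin of the G1/S transition, at 868 and 1156 against 265 and 279 (-1.88 ± 0.14). CDKN2C, the CDK4 and CDK6 inhibitor p18, was higher by 1.66 ± 0.14, and by 1.45 without DEL-22379 replicate 1, which is under the threshold of a call. CDKN1B, the inhibitor p27, was at 932 and 1573 against 1456 and 1903 (0.46 ± 0.15, adjusted p = 0.0256).

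POLE, the catalytic subunit of DNA polymerase epsilon (-1.81 ± 0.13), and PRC1, a bundler of spindle microtubules (-1.80 ± 0.11), are shown as examples from these lists. In POLE, capitals mark an E2F site, 18 to 11 bases before the start on the opposite strand, and in PRC1 the cell cycle homology region CHR, TTTGAA, 20 to 15 bases before it.
POLE (chr12:132687343-132687420, minus strand, GRCh38.p14): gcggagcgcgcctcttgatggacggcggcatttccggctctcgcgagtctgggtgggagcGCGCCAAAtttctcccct
PRC1 (chr15:90994536-90994615, minus strand, GRCh38.p14): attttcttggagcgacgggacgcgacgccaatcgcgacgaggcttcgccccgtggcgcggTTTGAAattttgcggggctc
E2F sites were searched as TTTCCCGC or TTTGGCGC on both strands, and 18 of 37 promoters of replication genes held a match against 3.64% of all promoters. The CHR was in 24 of 35 promoters of mitosis genes and in 9.85% of all promoters. Among the genes called lower the shares were 4.96% for E2F sites and 13.6% for the CHR, and among genes called higher 1.73% and 12.5%.

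Genes of the extracellular matrix included members far out on the higher side. FN1 (chr2:215360440-215436172), which encodes fibronectin, was at 9031 and 17530 normalized counts with DEL-22379 and at 906327 and 739858 with U0126, which was 2.72% and 2.36% of all normalized counts in those libraries. DMSO libraries held 29834 and 108890, between the drugs. The difference was 6.02 ± 0.41 (adjusted p = 5.04e-06). Of 27 collagen chains tested, 14 were higher and 5 lower, 11 and 4 of them called, with a median of 1.13.

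COL1A2, a chain of collagen I, was at 57.4 and 37.2 with DEL-22379 and 3339 and 3645 with U0126 (6.21 ± 0.69, adjusted p = 2.06e-05). Its partner COL1A1 was at 3667 and 1921 against 62442 and 37365 (4.19 ± 0.56, adjusted p = 3.31e-04). COL12A1 was higher by 3.39 ± 0.15, COL8A1 by 4.63 ± 0.32, and COL4A5, a chain of basement membranes, by 4.01 ± 0.18 (adjusted p = 3.17e-08). The groups of these 5 chains did not overlap. COL17A1, a collagen of hemidesmosomes, went the other way, at 106 and 94.9 against 9.06 and 13.4 (-3.07 ± 0.24, adjusted p = 1.49e-06).

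Other matrix proteins had 20 of 38 members higher and 6 lower, with a median of 0.53. Without U0126 replicate 1 the lower members numbered 10. SPARC, a collagen-binding matricellular protein, was at 3713 and 2153 against 21534 and 19368 (2.85 ± 0.31), and the proteoglycan VCAN at 1493 and 1491 against 10804 and 6765 (2.52 ± 0.15). CCN5, a member of the CCN family of matricellular proteins, was at 0 in both DEL-22379 libraries and at 95.1 and 182 with U0126, at least 40.1-fold higher against a floor of 3 reads per library. LAMB3, the β chain of laminin-332 in epithelial basement membranes, was lower, at 11054 and 7537 against 562 and 411 (-4.25 ± 0.14, adjusted p = 5.98e-09). ITGA6, a subunit of the laminin-binding integrin of hemidesmosomes, was lower as well, at 4744 and 2816 against 748 and 560 (-2.50 ± 0.13). Among integrins, 8 of 17 were lower and 5 higher, the latter 3 without DEL-22379 replicate 1 or without U0126 replicate 1. ITGB8, which activates latent TGF-beta, was at 237 and 226 against 5537 and 5726 (4.60 ± 0.24, adjusted p = 1.28e-07).

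Cadherins and cell junction genes were higher in 17 of 37 cases and lower in 5, with a median of 0.74. FAT4, an atypical cadherin, was at 20.4 and 12.4 with DEL-22379 and 2620 and 2864 with U0126, with DMSO at 163 and 581 (7.34 ± 0.57, adjusted p = 1.41e-05). CDH2, the neural cadherin, was at 2934 and 2442 against 7205 and 6725 (1.38 ± 0.13, adjusted p = 4.48e-06), and CTNNB1, the gene of β-catenin, at 8163 and 7565 against 11463 and 10033 (0.45 ± 0.10, adjusted p = 2.90e-03). All 3 genes had separate groups, though CDH2 and CTNNB1 were under the size of a call. CTNND1, the gene of p120-catenin, was higher by 1.58 ± 0.13, and by 1.40 without DEL-22379 replicate 2.

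Factors and markers of the epithelial-mesenchymal transition did not share a direction, with 4 of 18 higher, 7 lower and a median of -0.12. SNAI1, a repressor of E-cadherin, was at 4559 and 22120 with DEL-22379 and 229 and 490 with U0126, against 146 and 232 with DMSO (-4.90 ± 0.36, adjusted p = 1.36e-06). ZEB1 was at 2071 and 1850 against 948 and 903 (-1.08 ± 0.11, adjusted p = 8.28e-06), and VIM, the gene of vimentin, at 97283 and 98481 against 64939 and 56130 (-0.70 ± 0.10, adjusted p = 1.18e-04). The U0126 libraries lay under the DEL-22379 libraries for these 3 genes, and VIM in DMSO was lower still, at 48949 and 46076. SNAI2 was at 364 and 382 against 270 and 233 (-0.57 ± 0.61, adjusted p = 0.473), and DMSO held less, 20.1 and 154. KRT19, an epithelial keratin, was higher by 2.00 ± 0.27.

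Secreted proteases had members far out on both sides. ADAMTS15 (chr11:130448974-130476641), a secreted metalloprotease, was at 1.28 and 4.13 with DEL-22379 and 5585 and 5537 with U0126, with DMSO at 5.35 and 93.2 (10.67 ± 0.90, adjusted p = 1.80e-05). MMP1, the interstitial collagenase, was at 176 and 334 against 0.910 and 2.68 (-6.52 ± 0.22, adjusted p = 1.89e-08). MMP16, a membrane-bound metalloproteinase, was higher by 3.36 ± 0.19 and ADAMTS1 by 3.88 ± 0.28. In all, 10 of 29 were higher and 8 lower, with a median of 0.00.

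**Figure D3:**
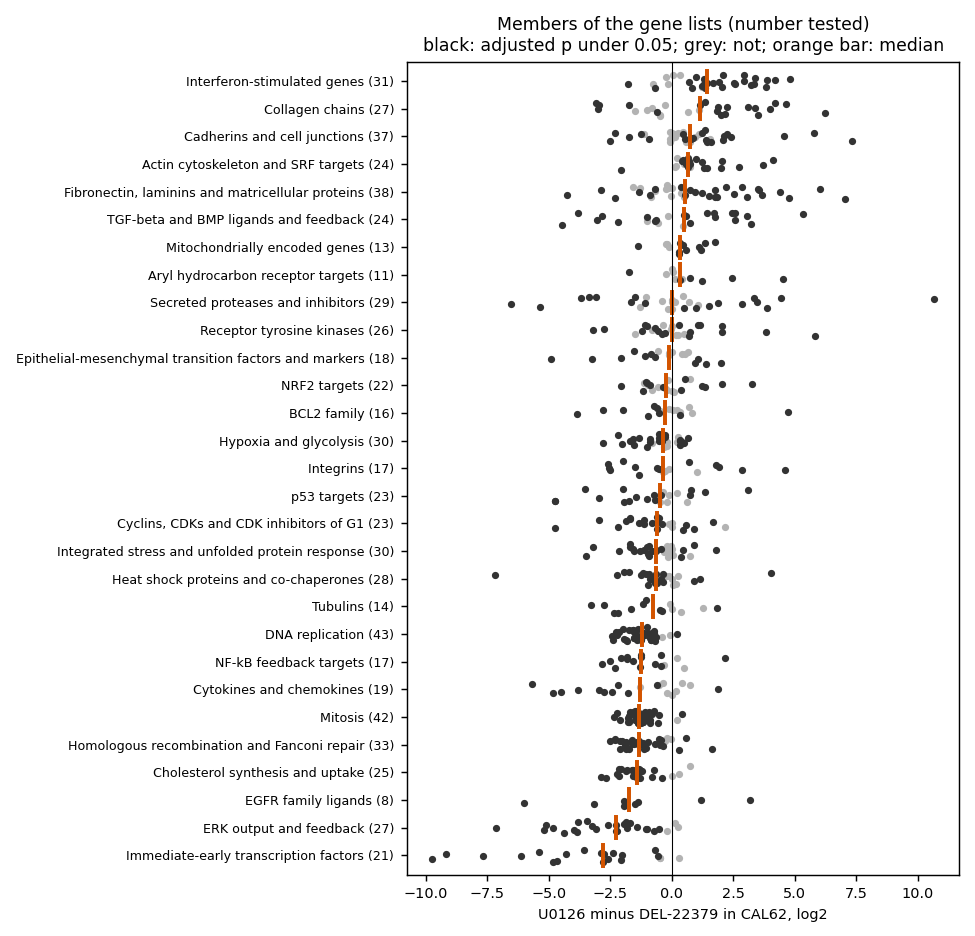
Each point is a tested member of a gene list, placed by its log2 difference, U0126 minus DEL-22379, with lists ordered by their median (orange bars). Black points have an adjusted p under 0.05. The list medians ran from -2.79 for immediate-early factors and -2.26 for ERK output to 1.13 for collagen chains and 1.45 for interferon-stimulated genes.

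Actin genes and tubulin genes parted. Of 24 cytoskeletal genes and targets of serum response factor, 18 were higher with U0126 and 1 was lower, with a median of 0.66. MYL9, the regulatory light chain of myosin, was at 1766 and 2134 normalized counts with DEL-22379 and 13869 and 12144 with U0126 (2.74 ± 0.22, adjusted p = 2.49e-06), and CALD1, the gene of caldesmon, was higher by 2.03 ± 0.12. TPM1, a tropomyosin that lines actin filaments, was at 927 and 1159 against 24907 and 12944 (4.11 ± 0.40). ACTB differed less, at 70466 and 61471 against 113471 and 90686 (0.62 ± 0.10, adjusted p = 3.44e-04), and CCN2, at 15399 and 16263 against 56438 and 8966, had overlapping groups (adjusted p = 0.534). ACTA2, the actin of smooth muscle, was the member lower with U0126 (-2.06 ± 0.33). Of 14 tubulins, 9 were lower and 1 was higher, with a median of -0.76. TUBB3 was at 4091 and 10944 against 1064 and 1595 (-2.36 ± 0.16, adjusted p = 4.96e-07), and TUBB4B at 26648 and 36954 against 7722 and 6213 (-2.18 ± 0.26). TUBB2A (-2.75 ± 0.24) and TUBB2B (-3.27 ± 0.50) are close copies and may share reads.

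In the TGF-beta and BMP pathway, 12 of 24 members were higher and 8 lower, with a median of 0.48. Without DEL-22379 replicate 2 the lower members numbered 5. ID1, a target of BMP signaling, was at 867 and 1506 against 5489 and 7065 (2.45 ± 0.23, adjusted p = 1.10e-05), and ID3 was higher by 1.41 ± 0.11. ID2 of the same family was lower, at 753 and 3753 against 50.7 and 109 (-4.48 ± 0.40, adjusted p = 3.90e-06). GREM1, an inhibitor of BMP ligands, was at 1352 and 1071 against 10500 and 9664 (3.06 ± 0.38), and TGFB3 was higher by 2.57 ± 0.38. The ID genes thus lay on opposite sides of the contrast, ID1 and ID3 with U0126 and ID2 with DEL-22379.

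Genes of cholesterol synthesis and uptake were lower with U0126 in 22 of 25 cases and higher in 0, 12 of them called, with a median of -1.41. INSIG1, which restrains the activation of sterol response factors, was at 27268 and 22457 normalized counts with DEL-22379 and 4561 and 2465 with U0126 (-2.88 ± 0.23), where DMSO held 5269 and 2897. DEL-22379 was over the other groups in INSIG1, and U0126 was under DMSO within each replicate pair. SREBF2, which encodes the sterol response factor itself, was lower (-0.40 ± 0.12, adjusted p = 0.0122).

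Other metabolic groups differed less. Of 30 hypoxia and glycolysis genes, 17 were lower and 6 higher, with a median of -0.37. ENO2 was at 6168 and 6064 against 1327 and 1687 (-2.03 ± 0.15, adjusted p = 8.71e-07), VEGFA was lower (-1.33 ± 0.12), and LDHA was higher by 0.32 ± 0.10. Among NRF2 targets 6 of 22 were higher and 6 lower, with a median of -0.24, shares near those of all genes. Mitochondrially encoded RNAs were higher in 9 of 13 cases and lower in 1, with a median of 0.35, and 5 were higher after quantile normalization or without U0126 replicate 1. MT-CO3 was at 84585 and 89816 against 348241 and 253748 (1.77 ± 0.14), and DMSO at 341290 and 241981. The summed level of these 13 RNAs was 2047405 and 1914210 with DEL-22379 and 2885226 and 2266636 with U0126.

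Targets of the aryl hydrocarbon receptor, a sensor of planar aromatic compounds, were higher in 5 of 11 cases and lower in 1. CYP1B1 was at 54.9 and 17.5 with DEL-22379, 860 and 635 with U0126 and 64.2 and 35.1 with DMSO (4.52 ± 0.47, adjusted p = 1.23e-05). NQO1 was at 1638 and 1970 against 4812 and 3642 (1.22 ± 0.16, adjusted p = 6.00e-05), and ARNT, the partner of the receptor, was higher by 0.72 ± 0.12. CYP1A1 stayed at 10.3 or less in all 4 libraries, and TIPARP did not differ by more than its error (0.04 ± 0.24). U0126 thus stood above both other groups in CYP1B1 and NQO1.

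Interferon-stimulated genes were higher with U0126 in 23 of 31 cases and lower in 2, 12 and 1 of them called, with a median of 1.45. Without U0126 replicate 1, 15 were higher. IFIH1 (chr2:162267079-162318703), the RNA sensor MDA5, was at 3.83 and 7.22 normalized counts with DEL-22379, 161 and 191 with U0126 and 66.9 and 106 with DMSO (4.81 ± 0.27, adjusted p = 1.45e-07). IFIT1, an antiviral protein that binds RNA, was at 24.3 and 21.7 against 321 and 352 (3.82 ± 0.39), and IFIT5 at 80.4 and 71.2 against 314 and 269 (1.93 ± 0.13). The groups of all 3 genes were separate, and the DMSO libraries lay between them, above every DEL-22379 library. SAMD9L, an antiviral factor outside this list, was at 0 and 4.13 against 416 and 461 (7.60 ± 0.49, adjusted p = 4.49e-07). MX1 (1.45 ± 0.41) and ISG15 (0.99 ± 0.32) were higher with adjusted p of 0.0119 and 0.0225, and ISG20, at 1869 and 1485 against 454 and 526, was lower (-1.77 ± 0.34).

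The start region of IFIH1 is shown because this gene had the largest called difference of the list. Capitals mark the interferon-stimulated response element, searched as GAAANNGAAA on both strands, with overlapping matches 159 to 150 and 153 to 144 bases before the start on the opposite strand and another at 21 to 12 on the strand of the gene.
IFIH1 (chr2:162318685-162318903, minus strand, GRCh38.p14): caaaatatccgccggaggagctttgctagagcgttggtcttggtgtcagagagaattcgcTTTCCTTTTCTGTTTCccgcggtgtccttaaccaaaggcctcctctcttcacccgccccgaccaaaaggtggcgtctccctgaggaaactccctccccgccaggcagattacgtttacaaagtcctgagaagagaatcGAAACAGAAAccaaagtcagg
The element was in 15 of 24 promoters of the list, in 2.97% of all promoters, in 5.30% of those called higher and in 2.63% of those called lower.

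Outside the lists, the largest differences included surface receptors and secreted proteins. S1PR1, a receptor of sphingosine 1-phosphate, was at 34.5 and 16.5 normalized counts with DEL-22379 and 2828 and 2707 with U0126, with DMSO at 143 and 399 (6.80 ± 0.47, adjusted p = 2.85e-06). SEMA3E, a semaphorin, was at 0 and 1.03 against 137 and 128 (6.55 ± 0.24, adjusted p = 9.82e-09), and UNC5C, a netrin receptor, was higher by 6.52 ± 0.82. PRR16 (8.46 ± 0.64), ACTBL2 (8.05 ± 0.86), KCNH7 (7.38 ± 1.05) and GALNT5 (6.63 ± 0.65) were at 3.10 or less in each DEL-22379 library and at 133 or more in each U0126 library. ADGRF1, an adhesion receptor, was at 0 with DEL-22379 and at 149 and 193 with U0126, at least 49.4-fold higher. ACTBL2 is similar in sequence to other actin genes and may share reads with them.

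On the lower side, STC1, the secreted stanniocalcin 1, was at 2280 and 2348 with DEL-22379 and 0.910 and 16.1 with U0126 (-8.66 ± 0.63, adjusted p = 1.43e-05). RASD1, a small GTPase, was at 2782 and 14363 against 12.7 and 50.9 (-7.89 ± 0.45, adjusted p = 1.69e-07), and ACP7, an acid phosphatase by sequence, at 4410 and 3750 against 23.6 and 51.8 (-6.82 ± 0.46). LPAR6, NTSR1 and WFIKKN2 were at 0 in both U0126 libraries and at 40.8 to 205 with DEL-22379, at least 43.9-fold, 41.1-fold and 45.6-fold lower with U0126. The groups were separate for all of these genes. SLC5A5, the iodide transporter of the thyroid, was at 19.1 and 87.7 against 0.910 and 0 (-4.93 ± 0.88, adjusted p = 5.97e-04). Its call was lost without DEL-22379 replicate 2 (adjusted p = 0.0122) and without U0126 replicate 2 (adjusted p = 0.0133).

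The same contrast was far narrower in 8505c cells. There 147 genes were higher with U0126 than with 10 µM DEL-22379 (0.769%) and 137 lower (0.716%), from 4 other libraries in the same fit. The lines shared 54 genes called higher and 58 called lower, which were 4.41% of the CAL62 calls and 39.4% of the 8505c calls, and 14 genes were called in opposite directions. Across the 19127 genes the differences of the lines had a Pearson correlation of 0.29 and a Spearman correlation of 0.31, given as a description of genes that are not independent. A test of the difference between the lines called 702 genes more positive in CAL62 (3.67%) and 631 more negative (3.30%), and at an adjusted p under 0.05 it found 15.5% and 17.5% of genes. In 145 of the called genes all 4 8505c libraries of the contrast were under 10, and in 39 all 4 CAL62 libraries were, so that these genes were near the limit of detection in 1 of the lines. Calls of the line difference numbered 867 and 869 without U0126 replicate 1 or 2 of 8505c and 882 without U0126 replicate 1 of CAL62.

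ERK output was shared in part. Its median difference was -0.74 in 8505c against -2.26 in CAL62, and 15 of 27 members were more negative in CAL62 and 4 more positive. DUSP6 was at 1154 and 1383 with DEL-22379 and 186 and 95.5 with U0126 in 8505c (-3.24 ± 0.27), and the line difference of -0.61 ± 0.38 did not pass the test (adjusted p = 0.252). ETV5 was lower in both, with -4.01 ± 0.18 in 8505c and -3.82 in CAL62, a line difference of 0.19 ± 0.26. Neither result shows that the lines are alike. EGR1 differed, being lower (-2.20 ± 0.44) in 8505c, where DEL-22379 libraries held 793 and 439 normalized counts, and the line difference was -7.55 ± 0.62 (adjusted p = 8.84e-05). JUN had opposite signs, lower in CAL62 and higher by 1.00 ± 0.19 in 8505c, with a line difference of -3.03 ± 0.27 (adjusted p = 3.07e-05).

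Most genes of cell division and sterol metabolism were more negative in CAL62 than in 8505c. Of 43 replication genes 33 were more negative in CAL62 and 0 more positive, of 42 mitosis genes 38 and 0, and of 25 cholesterol genes 22 and 0. The medians of these lists in 8505c were -0.14, -0.08 and 0.11. CDC45 was at 939 and 988 normalized counts with DEL-22379 and 883 and 1009 with U0126 in 8505c, and its line difference was -2.35 ± 0.13 (adjusted p = 7.97e-07). CDKN1A did not pass the test in 8505c (0.29 ± 0.20, adjusted p = 0.333), and its line difference was -5.04 ± 0.28 (adjusted p = 7.97e-07). TUBB3 was higher with U0126 in 8505c by 1.62 ± 0.16 and lower in CAL62, a line difference of -3.98 ± 0.22 (adjusted p = 8.89e-07). FN1 was at 22425 and 41432 against 61299 and 76629 in 8505c (1.17 ± 0.41, adjusted p = 0.0792), and its line difference was 4.86 ± 0.58 (adjusted p = 4.71e-04).

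Of 11 targets of the aryl hydrocarbon receptor, 9 were higher with U0126 in 8505c against 5 in CAL62, at an adjusted p under 0.05. The share of all genes at that threshold was counted for CAL62 (25.1% higher) and not for 8505c. The 8505c count thus has no such share to be read against. The median of these targets was 1.88 in 8505c and 0.33 in CAL62, and 5 were more negative and 1 more positive in CAL62. CYP1A1, its classical target, was at 9.40 and 7.31 with DEL-22379 and 902 and 636 with U0126 in 8505c (6.35 ± 0.59), against 0.910 and 0.890 with U0126 in CAL62, and the line difference was -8.09 ± 0.83 (adjusted p = 5.37e-05). CYP1B1, by contrast, was higher by 4.99 ± 0.47 in 8505c and by 4.52 in CAL62, a difference of -0.46 ± 0.67 (adjusted p = 0.630).

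**Figure D4:**
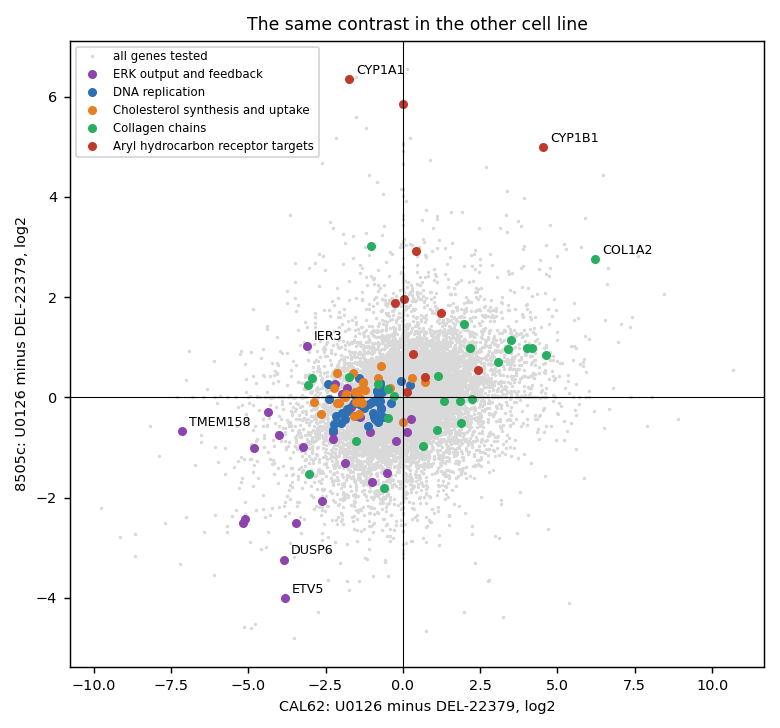
Log2 difference, U0126 minus DEL-22379, in CAL62 cells (x axis) and in 8505c cells (y axis) for all genes tested (grey) and for 5 gene lists (colours). Replication and cholesterol genes spread to the left at a height near 0, DUSP6 and ETV5 lie low in both lines, and CYP1A1 lies high in 8505c only.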

How the data were processed

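The mRNA of 4 treatments in 2 cell lines was sequenced by a stranded protocol, in 2 replicates per group. The authors deposited normalized counts per gene (a signal, reads divided by a library size factor) on build GRCh38. The aligner, counter and annotation release were not given in the sources used here. Values below 200 were whole multiples, within 0.02 reads, of a step in 15 of the 16 libraries, which gave the reads used for edgeR and DESeq2. Groups came from the sample labels.

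Log2(normalized count + 1) values of all 16 libraries were fitted with limma 3.58.1 (trend, robust) in R 4.3.3. The fit had a mean per line and drug and the replicate number as a block within line. The rule that defined the contrast pairs libraries by replicate number. The paper used paired tests for cell lines and does not state whether its RNA-seq replicates were paired. Deviations of same-numbered CAL62 libraries from their group means correlated at 0.22 to 0.504, and those of 8505c at 0.088 to 0.122. The members and gene lists were chosen with earlier results of these data known. Genes were named by rule: the 12 largest called protein-coding differences per direction that held without each library, the 3 smallest p of each list, the genes the study measured by RT-qPCR and the 8 largest line differences per direction. Other genes named were chosen after their values were seen. Alternatives were other pseudocounts (0.5, 5), filters, scalings, blocks and sample sets, leaving out each library, and counts models (edgeR 4.0.16, DESeq2 1.42.0). The code was tested on simulated data. Coordinates are from GENCODE 29, matched by ID without version for 96.35% of genes, and promoters from RefSeq (GRCh38.p14), matched by symbol for 11467 protein-coding genes. Promoters shown belong to the list member with the largest stable difference among those with a match before the start. Genes on chromosome 8 were left out of that choice. Some members of the lists are counted but not reported by name here.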

Additional observations from a re-analysis of the deposited data

Results flagged for a closer look

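The contrast between the drugs differed between CAL62 and 8505c cells in 87 of the 130 genes named by rule, 33 more positive and 54 more negative in CAL62, by limma's test of the line difference and the thresholds of a call. Values are CAL62 minus 8505c of the log2 difference, U0126 minus DEL-22379, for 82 of them, and the other 5 are not described here. Protease, matrix, adhesion and cytoskeletal genes more positive in CAL62 were ADAMTS15 (10.12), MAMDC2 (9.47), ACTBL2 (8.05), FAT4 (5.94), CCN5 (5.59), FN1 (4.86), ITGB8 (4.10), COL4A5 (3.04), MMP16 (2.93), ADAMTS1 (2.66), VCAN (2.59), COL12A1 (2.42), MYL9 (1.56) and CALD1 (1.52). Ligands, receptors, surface proteins and guidance factors of the same direction were IL7R (7.48), UNC5C (7.12), S1PR1 (6.60), ADGRF1 (5.81), KIT (5.20), SEMA3E (5.0), THY1 (3.54) and NRG1 (2.25). The remaining genes of this direction were KCNH7 (7.38), CXXC4 (7.30), PRR16 (6.39), SAMD9L (4.77), GALNT5 (4.04), IFIH1 (3.19), ID1 (2.63), BMF (2.32), IFIT5 (1.6) and ID3 (1.5). In MAMDC2 and CXXC4 part of the value came from lower levels under U0126 in 8505c (-4.10 and -2.63), for CXXC4 at 5.68 counts or less. IL7R was at -1.61 in 8505c, which did not pass the test.

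Transcription factors and other induced genes more negative in CAL62 were EGR1 (-7.55), FOS (-6.39), ARC (-5.49), EGR3 (-5.18), ID2 (-3.73), SNAI1 (-3.68), JUNB (-3.29), JUN (-3.03), CEBPB (-2.59), NR4A1 (-2.57) and NFKB2 (-2.53). Targets of ERK, growth factors, cytokines and receptors of this direction were LPAR6 (-7.82), TMEM158 (-6.47), STC1 (-5.94), AREG (-5.91), NTSR1 (-5.37), CD4 (-4.88), DUSP5 (-3.82), HBEGF (-3.58), IL11 (-3.36), CD14 (-2.71), DDR2 (-2.59), VEGFA (-1.75) and CXCL2 (-1.54). Genes of division, repair, stress and cell death were CDKN1A (-5.04), PPP1R15A (-3.22), PMAIP1 (-2.95), CDC45 (-2.35), AURKB (-2.16), FANCA (-2.0), CCNE2 (-1.98), FANCI (-1.88), PLK3 (-1.84), FEN1 (-1.81), CLSPN (-1.66) and MCL1 (-1.63). Genes of matrix, adhesion, tubulin and other functions were MMP1 (-5.78), LAMB3 (-4.24), TUBB3 (-3.98), TUBB2A (-3.35), COL17A1 (-3.32), ITGA6 (-2.52), ACP7 (-6.82), RASD1 (-6.72), WFIKKN2 (-5.65) and ENO2 (-1.59). In CYP1A1 (-8.09), ALPP (-7.91), VIT (-7.32) and KRT16 (-7.12) the negative values came with higher levels under U0126 in 8505c and with counts of 10.3 or less in each CAL62 library of the contrast.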

How the results depend on the processing

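The count of 2539 calls was between 1798 and 2552 when each of the 16 libraries was left out in turn, and 2227 without the replicate block (1223 higher, 1004 lower). The 8 CAL62 libraries alone, with the block, gave 2125 calls (1131 higher, 994 lower). edgeR on recovered reads with the block gave 2381 calls and DESeq2 2157. The 4 libraries alone gave 1213 calls without the block and 0 with it, where 1 residual degree of freedom was left and 9209 genes had an unadjusted p under 0.05. The 1333 calls of the line difference ranged from 867 to 1568 over the fits without a library and numbered 906 without the block. Scaling to equal totals made 62.53% of these calls higher against 52.66%, with the median of all genes at 0.13 against -0.03. Of the 100 named genes called, 74 were called under every alternative except the blocked fit of the 4 libraries. In the fits without a library, the difference of SNAI2 ran from -1.46 to 0.32 against -0.57, with 0.13 without DEL-22379 replicate 1, and that of ALPP from -3.28 to 0.24 against -1.52. The positive values, none past the test, came without DEL-22379 replicate 1 or U0126 replicate 2 for SNAI2 and without DEL-22379 replicate 2 for ALPP. The calls of PIR, CD14, KDR and IL7R were also lost in at least 1 of the fits without a library of the contrast. DESeq2 lost 3 of the 100 calls, those of ACTBL2, KCNH7 and KDR, and gave 2 others no adjusted p, and edgeR lost 1. Among the largest line differences, edgeR lost those of ACTBL2, KCNH7, ACP7 and IL7R, and DESeq2 those of ACTBL2 and KCNH7. The causes were not tested. Depth limits genes near the floor of 3 reads per library, 3.46 normalized counts with DEL-22379 and 2.70 with U0126.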
